A study of Macaca mulatta with 51 samples.

Results

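Genes that mark resident and alternatively activated macrophages were followed in subcutaneous adipose tissue (AT) and gastrocnemius skeletal muscle (SM) of obese rhesus macaques before, during and after treatment with fibroblast growth factor 21 (FGF21). The members were 9 genes chosen by name: the scavenger receptors CD163 and STAB1, the lectins MRC1 and CD209, the uptake receptors LYVE1, FOLR2 and TIMD4, the secreted enzyme subunit F13A1, and the transcription factor MAF. Entries of the count table with 8 of the 9 symbols were found among its 16033 genes, and MAF was not analysed here. All 8 passed the filter on low counts in both tissues.

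Macrophages live in every tissue, and those that settle for long periods take up dead cells, lipoproteins, iron and matrix fragments rather than driving inflammation. Interleukin signals of the type 2 response, glucocorticoids and colony stimulating factors favour this state, in which scavenger receptors and lectins are expressed at high levels on the cell surface. In AT such cells lie along vessels and between adipocytes, while macrophages that gather around dying adipocytes in obesity express other genes, for lipid handling and antigen presentation. Several of the members are also made elsewhere: LYVE1 is a standard marker of lymphatic endothelium, STAB1 is found on some endothelial cells, CD209 on some dendritic cells, and F13A1 in platelets and monocytes.

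The animals were 10 diet-induced obese (DIO) rhesus macaques without diabetes (5 ovariectomized females, 5 males), aged 11 to 22 years and kept on a high-fat, high-sucrose diet for at least 2 years. Biopsies were taken before treatment (Pre), after 12 weeks of daily subcutaneous native human FGF21 (Post), and 16 weeks after treatment stopped (Wash). The dose was raised from 10 to 1000 ug/kg/day, and 1 animal stayed at 300 ug/kg/day. AT had 10 Pre, 9 Post and 8 Wash libraries and SM had 6, 8 and 7, each from 1 animal and 1 biopsy. Every animal was its own control and no untreated animals were followed in parallel. The study reports that the animals lost body weight during treatment and regained it in the washout. Treatment, weight change and the passing of time therefore cannot be told apart.

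Total counts per library were 14455195 to 23940980. The 4 adipocyte markers in the table, among them ADIPOQ and LEP, summed to 2285 to 11820 CPM (counts scaled to library size) in the AT libraries and to 7.45 to 360 CPM in those of SM, and the 7 muscle fibre markers summed to 47.2 to 163 CPM in AT and to 41500 to 220400 CPM in SM, so all libraries matched their labelled tissue. Library size was adjusted by TMM scaling, and fold changes, on the log2 scale with their standard error (SE), come from edgeR's quasi-likelihood test with animal in the model. A gene was called differentially expressed (DE) where its log2 fold change lay beyond 0.26 in either direction and its Benjamini-Hochberg adjusted p was under 0.05.

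During treatment the members did not move as a group in AT, and after it stopped most of them fell. None of the 8 was DE Post compared to Pre, where 15.5% of all genes tested were, and 3 had an unadjusted p under 0.05. At washout compared to Post, 6 of the 8 were lower, against 17.8% of all genes, and 1, STAB1, was higher, against 17.6%. The same 6 genes, CD163, MRC1, CD209, FOLR2, TIMD4 and F13A1, were also lower at washout than Pre, where 7.96% of all genes were lower and 12.5% higher. In bulk tissue fewer macrophages and less of a transcript in each macrophage cannot be told apart.

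**Figure D1:**
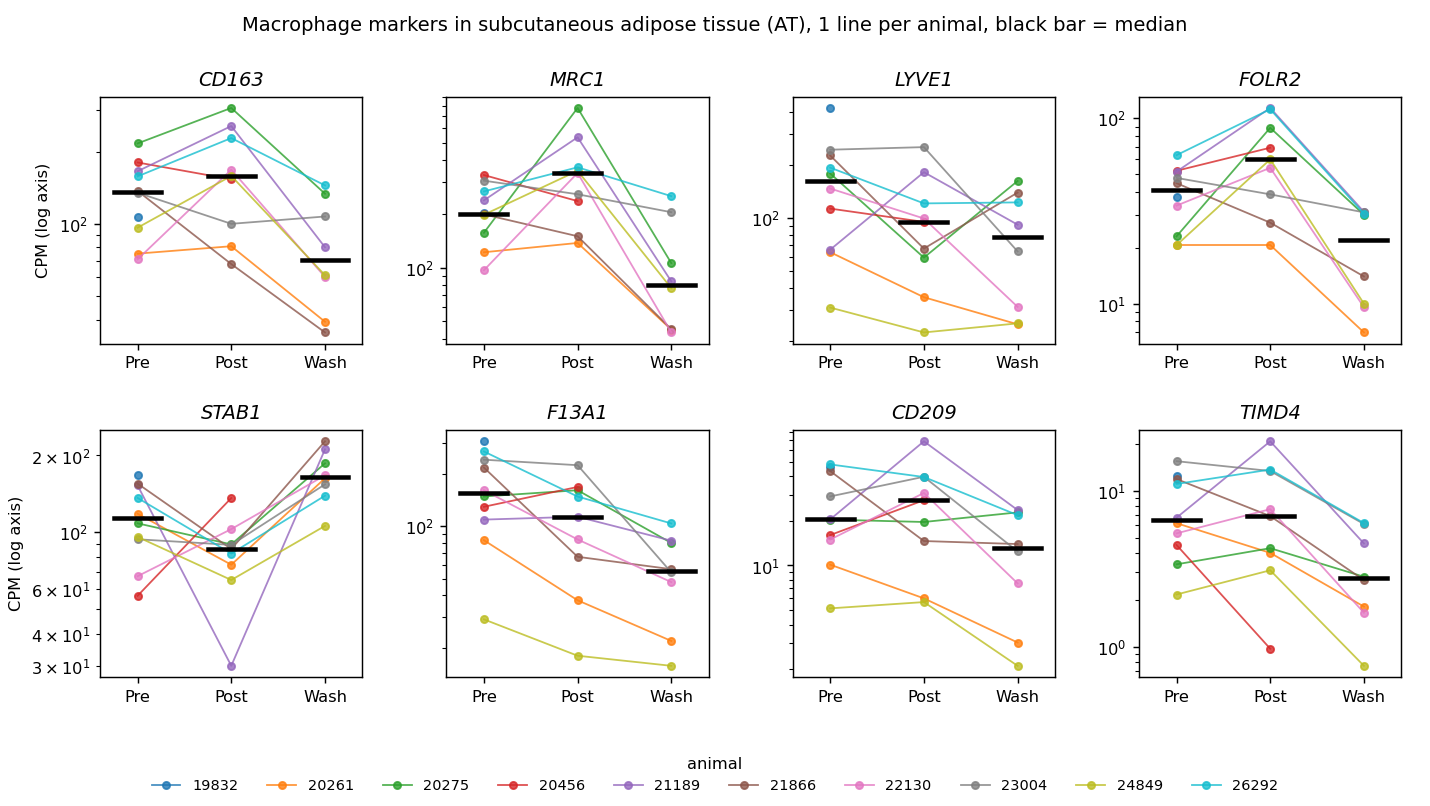
CPM of the 8 members in AT (log axes, 1 panel per gene) at Pre, Post and Wash, with 1 line per animal and a black bar at the median. Of the 8 animals with both samples, all 8 were lower at Wash than at Post for MRC1, FOLR2, TIMD4 and F13A1, and all 8 were higher for STAB1.

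CD163, the receptor that clears complexes of haemoglobin and haptoglobin, was measured in AT at 71.3 to 217 CPM with a median of 136 Pre, at 68.2 to 305 CPM with a median of 159 Post, and at 35.4 to 145 CPM with a median of 70.7 at washout. The ranges overlapped at all 3 time points. Post-treatment values were higher than Pre in 6 of 9 animals, and the log2 fold change was 0.23 (SE 0.19, adjusted p = 0.417). At washout CD163 fell in 7 of 8 animals compared to Post, by 1.02 on the log2 scale (SE 0.20, adjusted p = 8.67e-04), and it was lower than Pre in 8 of 8 animals (log2 fold change -0.79, SE 0.20, adjusted p = 0.00814).

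STAB1, a scavenger receptor that takes up modified lipoproteins and the matrix protein SPARC, went the other way. Its AT values were 56.5 to 168 CPM with a median of 113 Pre, 30.1 to 136 CPM with a median of 86.1 Post, and 106 to 227 CPM with a median of 165 at washout. Only the highest Post library reached into the washout range. Post compared to Pre it was lower in 7 of 9 animals (log2 fold change -0.37, SE 0.24, adjusted p = 0.272). In the last identifier series alone STAB1 was DE lower Post than Pre (log2 fold change -0.88, adjusted p = 0.04 in the same edgeR test). At washout STAB1 rose 2.003-fold over Post, in 8 of 8 animals (log2 fold change 1.002, SE 0.25, adjusted p = 0.00436), and it stood above Pre in 8 of 8 animals without passing the test (log2 fold change 0.63, SE 0.24, adjusted p = 0.0662). It did pass against Pre with voomWithQualityWeights (adjusted p = 0.0423), DESeq2 (0.0353), library size scaling (0.0390), only the 2 time points fitted (0.00505), the identifier series in the model (0.0462) and without animal 21189 (0.0275).

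The mannose receptor MRC1 showed the largest difference of the 8 between Post and washout in AT. It was measured at 96.7 to 329 CPM with a median of 200 Pre, at 137 to 781 CPM with a median of 338 Post, and at 43.4 to 251 CPM with a median of 80.3 at washout. The Post and washout groups overlapped through the animals 23004 and 26292 at washout, with 204 and 251 CPM, and through 20261, 21866 and 20456 at Post, with 137, 150 and 235.5 CPM. The log2 fold change Post compared to Pre was 0.67 (SE 0.29, adjusted p = 0.111), with 6 of 9 animals higher. From Post to washout MRC1 fell 3.58-fold, in 8 of 8 animals (log2 fold change -1.84, SE 0.31, adjusted p = 2.40e-04), and it ended 2.25-fold below Pre (log2 fold change -1.17, SE 0.31, adjusted p = 0.00959), lower in 8 of 8 animals.

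CD209, a lectin that binds mannose-rich glycans and the adhesion molecules ICAM2 and ICAM3, had 5.14 to 48.0 CPM in AT Pre (median 20.4), 5.67 to 68.8 CPM Post (median 27.6) and 2.11 to 23.7 CPM at washout (median 13.2). The ranges overlapped at all 3 time points, and animals 20261 and 24849 were the lowest of each group. Post compared to Pre the log2 fold change was 0.19 (SE 0.26, adjusted p = 0.648). At washout CD209 fell in 7 of 8 animals compared to Post (log2 fold change -1.12, SE 0.28, adjusted p = 0.00486), and it was lower than Pre in 6 of 8 (log2 fold change -0.93, SE 0.28, adjusted p = 0.0219), a call that was lost without any 1 of animals 20261, 23004 and 26292 (adjusted p = 0.0635, 0.0576 and 0.0577 in the same edgeR test).

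FOLR2, the beta form of the folate receptor, was measured in AT at 20.7 to 63.3 CPM with a median of 41.1 Pre, at 20.7 to 114 CPM with a median of 60.0 Post, and at 6.98 to 31.3 CPM with a median of 22.1 at washout. Washout values overlapped the lowest Post values, those of animals 20261 and 21866. It was higher Post than Pre in 6 of 9 animals (log2 fold change 0.62, SE 0.23, adjusted p = 0.0714). It then fell 3.18-fold from Post to washout, in 8 of 8 animals (log2 fold change -1.67, SE 0.25, adjusted p = 8.62e-05), the smallest adjusted p of the 8 members in this comparison, and it was 2.07-fold below Pre (log2 fold change -1.05, SE 0.25, adjusted p = 0.00479).

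TIMD4, which binds phosphatidylserine on dying cells and marks long-lived resident macrophages, was counted with 15 to 349 reads per AT library. It had 2.16 to 15.4 CPM Pre (median 6.44), 0.968 to 20.7 CPM Post (median 6.86) and 0.752 to 6.19 CPM at washout (median 2.73). The Pre and Post medians lay close together while single animals moved up and down, and the log2 fold change between them was 0.0073 (SE 0.26, adjusted p = 0.988). At washout TIMD4 fell in 8 of 8 animals, 2.59-fold compared to Post (log2 fold change -1.37, SE 0.28, adjusted p = 9.77e-04) and 2.57-fold compared to Pre (log2 fold change -1.36, SE 0.28, adjusted p = 0.00157).

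F13A1, the catalytic subunit of coagulation factor XIII, had the smallest adjusted p of the 8 members at washout compared to Pre. It had 29.2 to 306 CPM in AT Pre (median 154), 18.0 to 223 CPM Post (median 113) and 15.8 to 104 CPM at washout (median 55.4). Animal 24849 was the lowest of each group, and the groups overlapped. The log2 fold change was -0.55 Post compared to Pre (SE 0.20, adjusted p = 0.0653), and F13A1 then fell in 8 of 8 animals from Post to washout (log2 fold change -0.82, SE 0.21, adjusted p = 0.00583) and was lower at washout than Pre in 8 of 8 (log2 fold change -1.36, SE 0.21, adjusted p = 1.21e-04). Of the 4 platelet genes tested 3 rose at washout: PF4 and PPBP, which encode platelet chemokines, had log2 fold changes of 2.18 and 2.28 compared to Post (SE 0.49 and 0.53), TUBB1 did not pass (0.27, SE 0.22, adjusted p = 0.345), and the platelet sum was 2.73 to 17.4 CPM Post and 4.86 to 69.4 CPM at washout. Their part in the F13A1 value was not tested.

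LYVE1, a receptor for the matrix polysaccharide hyaluronan, was the member with no call in AT in the edgeR test with all libraries. Its values were 30.8 to 420 CPM Pre (median 162), 22.3 to 251 CPM Post (median 94.5) and 24.8 to 161 CPM at washout (median 77.7). It was lower Post than Pre in 7 of 9 animals (log2 fold change -0.47, SE 0.30, adjusted p = 0.285), and from Post to washout 4 animals were higher and 4 lower (log2 fold change -0.33, SE 0.32, adjusted p = 0.439). Washout compared to Pre it was lower in 7 of 8 animals and did not pass the test (log2 fold change -0.80, SE 0.32, adjusted p = 0.0813). This call depended on the method: LYVE1 was DE lower than Pre with voomWithQualityWeights (adjusted p = 0.0327), with DESeq2 (0.0317), with only the 2 time points fitted (0.0469), with the identifier series in the model (0.0367), and without animal 20275 (0.0394) or 21189 (0.0477). Of the 5 lymphatic endothelial markers, FLT4, the receptor for lymphatic growth factors, was higher at washout than Post (log2 fold change 1.08, SE 0.21, adjusted p = 7.57e-04), PDPN was lower (-0.59, SE 0.10), and the list summed to 78.4 to 134 CPM Post and 52.1 to 443 CPM at washout. Of the 7 blood endothelial markers 2 were DE higher at washout than Post, and their sum was 777 to 1856 CPM Post and 918 to 2544 CPM at washout. The part of endothelial cells in the LYVE1 and STAB1 values was not tested.

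**Figure D2:**
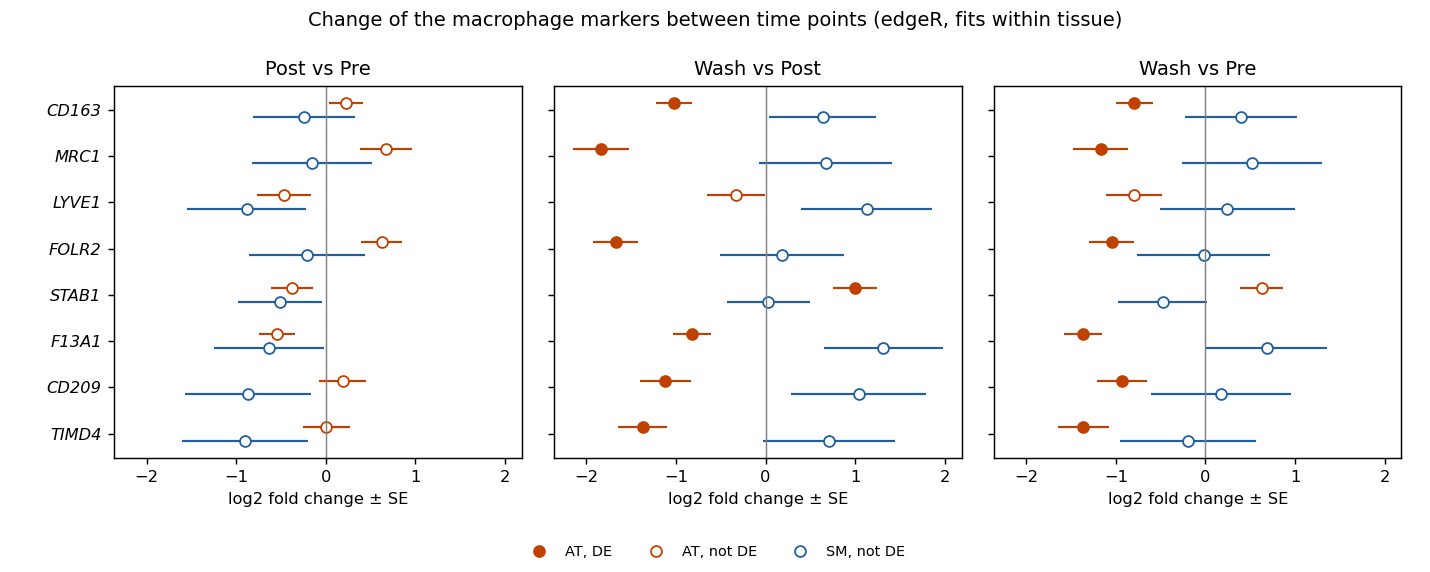
Log2 fold change with SE (bars) of each member between time points in AT (orange) and SM (blue), from edgeR fits within each tissue, with filled points for DE genes. In AT, 6 members lie below 0 with filled points at Wash compared to Post and STAB1 lies above, while no SM point is filled.

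Calls Post compared to Pre in AT changed with the method and the animals included. With limma's voomWithQualityWeights F13A1 was DE lower Post compared to Pre (adjusted p = 0.0337), with DESeq2 both F13A1 (0.0302) and FOLR2 (0.0394) were DE, and leaving out 20456, 21866 or 23004 gave 1, 1 and 2 calls of the same genes. The 7 washout calls against Post were kept whichever animal was left out, and 5 were kept when animal was not in the model, with F13A1 (adjusted p = 0.0879) and CD209 (0.105) lost. The 6 calls of washout against Pre shrank to 1, F13A1, when animal was left out of the model, and ranged from 5 to 8 when 1 animal was left out.

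Pan-macrophage genes rose in part during treatment in AT, when no member was DE, and fell at washout. Of 14 such genes, chosen by name as general macrophage markers, all 14 had a positive log2 fold change Post compared to Pre in AT and 6 were DE. The list median was 0.96 against 0.098 for the members and 0.029 for all genes tested. Whether the genes of the list are specific to macrophages, or alike in all macrophage states, was not tested. C1QA, C1QB and C1QC, the chains of the complement protein C1q, and FCER1G, an Fc receptor chain, were the genes of this list with the smallest p, with log2 fold changes of 0.73, 0.96, 0.90 and 1.06 (SE 0.21, 0.27, 0.25 and 0.32). All 14 fell from Post to washout, with a median of -1.73 against -1.07 for the members and -0.0021 for all genes, and 4 were lower at washout than Pre.

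Summed over the 8 members, AT libraries had a median of 868 CPM Pre, 886 CPM Post and 571 CPM at washout, while the pan-macrophage sum had medians of 2152, 4250 and 1106 CPM. The member sum as a percent of the pan-macrophage sum was 16.4 to 80.5 Pre (median 37.1), 13.3 to 35.6 Post (median 16.1) and 14.2 to 72.7 at washout (median 42.45). It was lower Post than Pre in 7 of 9 animals and higher at washout than Post in 7 of 8, with animals 20456 and 23004 the exceptions Post and 23004 at washout. The groups overlapped at all 3 time points, and the percent compares sums of counts, so longer and more abundant genes weigh more. Within it the members differed: the median percent for MRC1 was 9.51 Pre, 7.01 Post and 5.94 at washout, while that for STAB1 was 6.03, 1.94 and 16.97.

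**Figure D3:**
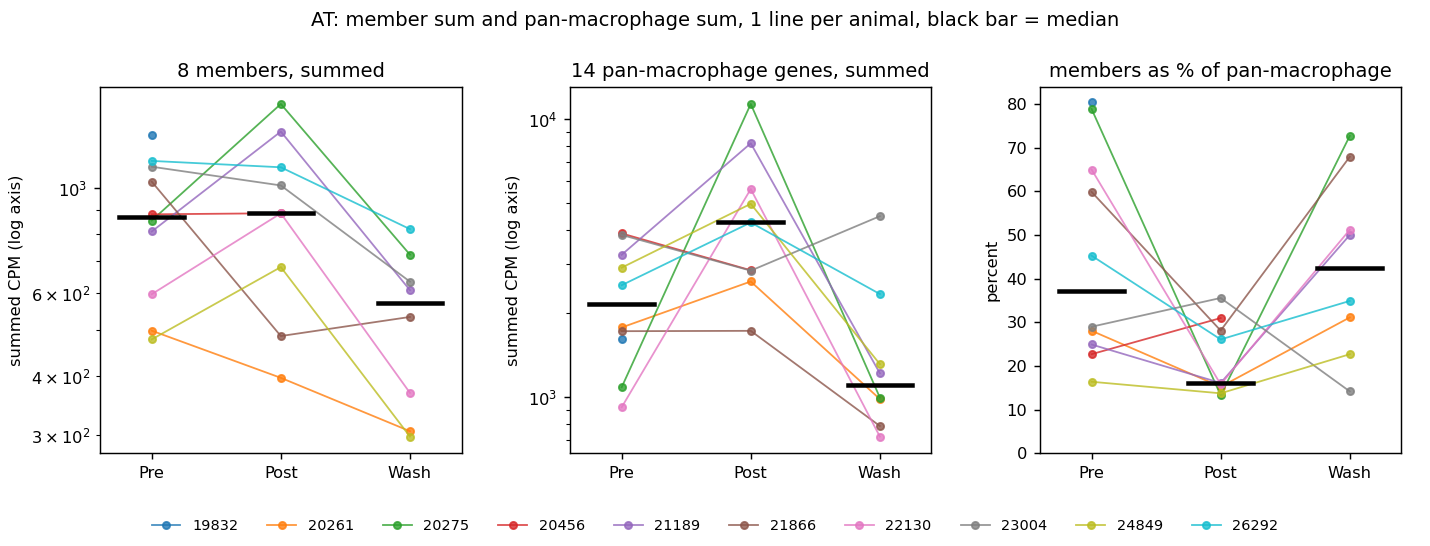
Summed CPM of the 8 members (left, log axis), summed CPM of the 14 pan-macrophage genes (middle, log axis) and the members as a percent of the pan-macrophage sum (right) in AT, with 1 line per animal and a black bar at the median. The pan-macrophage median is highest Post (4250 CPM) while the percent is lowest there (median 16.1).

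The 18 other resident macrophage genes in the table, which include further scavenger receptors, had calls in both directions Post and mostly lower ones at washout. Post compared to Pre in AT, SLC40A1, the iron exporter ferroportin, rose (log2 fold change 0.79, SE 0.11, adjusted p = 5.91e-04), as did the complement receptor VSIG4 (0.94, SE 0.28, adjusted p = 0.0308) and the membrane protein gene MS4A7 (0.63, SE 0.19, adjusted p = 0.0334). The chemokine CCL13 fell (log2 fold change -0.96, SE 0.32, adjusted p = 0.0454). From Post to washout 13 of the 18 were DE lower and 1 higher, with a median of -1.12, and 3 were lower at washout than Pre.

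Among 16 genes for the signals and factors that set this macrophage state, 3 rose and 3 fell Post in AT. IL10, an anti-inflammatory cytokine, rose (log2 fold change 1.03, SE 0.31, adjusted p = 0.0311). STAT3, the factor through which IL10 acts (log2 fold change -0.40, SE 0.08, adjusted p = 0.00455), and PPARG, a factor of adipocytes and of alternative activation (-0.70, SE 0.16, adjusted p = 0.0111), fell. At washout compared to Post 11 of the 16 were DE lower and 1, PPARG, higher, with a median of -0.54.

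Genes for the members' ligands and partners in uptake, 13 tested, mostly passed no test. SPARC, the matrix ligand of STAB1, was lower Post than Pre (log2 fold change -0.54, SE 0.17, adjusted p = 0.0360), as was TYRO3, a receptor kinase for apoptotic cells (-0.64, SE 0.14, adjusted p = 0.00757), and neither ICAM2 (0.22, SE 0.13, adjusted p = 0.258) nor ICAM3 (-0.13, SE 0.12, adjusted p = 0.460) was DE. The 2 DE genes at washout compared to Post, named after their values were seen, were HP, which encodes haptoglobin, the ligand part of the complex CD163 clears (log2 fold change 2.64, SE 0.72, adjusted p = 0.00571), and HAS3, a synthase of the LYVE1 ligand hyaluronan (1.70, SE 0.28, adjusted p = 1.71e-04).

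Lists for other macrophage states and other cells were described in the same way, beside the 15.5% of all genes that were DE Post compared to Pre. Of 10 genes of lipid-associated macrophages 1 was DE Post, GPNMB (log2 fold change 1.41, SE 0.35, adjusted p = 0.0157), and 7 were lower at washout than Post, and of 14 inflammatory activation genes 0 were DE Post and 3 were lower and 2 higher at washout. Of 8 monocyte genes 0 were DE Post and 4 were lower at washout. Of 5 dendritic cell genes 0 were DE in either comparison, of 8 T cell genes 1 was higher and 1 lower in each, and of the 3 erythroid genes tested 1, SLC4A1, was DE lower Post than Pre (log2 fold change -2.14, SE 0.60, adjusted p = 0.0218) and all 3 were DE higher at washout than Post, with sums of 455 to 7643 CPM Post and 458 to 11990 CPM at washout, while HBA1 and HBA2 were at 0 in every AT library. Of the 4 adipocyte genes tested 2 were DE lower Post than Pre, LEP (log2 fold change -1.93, SE 0.34) and PLIN1 (-0.62, SE 0.20), with sums of 6149 to 11820 CPM Pre, 2285 to 9356 CPM Post and 3791 to 11280 CPM at washout. The part of blood and of adipocytes in the members' washout values was not tested.

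In the 27 AT libraries the 7 members other than STAB1 were positively correlated, some pairs only weakly. All 21 pairs of these 7 had a positive Pearson r of log2 CPM, with a median of 0.602, whereas the 7 pairs with STAB1 had a median of -0.303 and 1 above 0. Pairs among CD163, MRC1 and FOLR2 had r of 0.85 to 0.89, and pairs among LYVE1, F13A1 and CD209 had 0.87 to 0.88. Pairs across these sets ran from 0.292 (MRC1 with LYVE1) to 0.740 (FOLR2 with CD209). These libraries come from 10 animals and share their time points, so the r values describe the set and were not tested. The genes most like the mean of the standardized members were CD5L (r = 0.911) and MS4A4A (r = 0.906), followed by RGL1, SLC9A9 and SERPINA1 (0.877, 0.871 and 0.864). Those most like CD163 were CD4 (0.885), COL6A3 (0.849), PSTPIP2 (0.831), SMCR8 (0.829) and SMC1A (0.826).

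In SM the members were measured at lower levels than in AT and none was DE between time points. In a fit of both tissues 7 of the 8 were higher in AT than in SM Pre, against 41.2% of all genes, and 7 were higher Post, against 40.8%, with STAB1 the exception (1.42-fold, SE 0.39 on the log2 scale, adjusted p = 0.228 Pre). The Pre calls depended on the method: with library size scaling STAB1 was also higher in AT (log2 1.23, adjusted p = 0.0166), and with voomWithQualityWeights LYVE1 did not pass (log2 1.41, adjusted p = 0.0519). The largest of these differences was that of MRC1, 16.2-fold Pre (log2 4.02, SE 0.67, adjusted p = 1.78e-06) and 18.0-fold Post. At washout 4 were higher in AT, against 42.3% of all genes: CD163 (3.69-fold), MRC1 (3.91-fold), FOLR2 (3.02-fold) and STAB1 (2.48-fold).

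Post compared to Pre in SM 0 of 8 members and 0% of all genes were DE, and 0 of the 8 had an unadjusted p under 0.05. The 8 log2 fold changes ran from -0.90 for TIMD4 to -0.15 for MRC1, with SE of 0.47 to 0.70, and the groups overlapped for every member. At washout compared to Post 0 of 8 were DE, against 0.19% of all genes, and 0 had an unadjusted p under 0.05, with log2 fold changes from 0.032 for STAB1 to 1.32 for F13A1 (SE 0.47 and 0.67, adjusted p = 0.982 and 0.326). At washout compared to Pre 0 of 8 were DE, against 0.0634% of all genes. The log2 fold changes ran from -0.48 for STAB1 to 0.68 for F13A1. The study, which used voomWithQualityWeights at the same limits, reports many more DE genes in SM for washout compared to Pre. This share of all genes is therefore not fixed across methods. DESeq2 and voomWithQualityWeights also called 0 of the 8 in each of these comparisons, and so did the edgeR test whichever animal was left out.

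Values in SM varied widely between animals within each time point. LYVE1 in SM had 6.36 to 77.5 CPM Pre (median 29.4), 4.204 to 54.6 CPM Post (median 18.6) and 9.46 to 125 CPM at washout (median 22.1). MRC1 had 1.71 to 21.3 CPM Pre (median 7.71), 1.36 to 19.9 CPM Post (median 11.3) and 2.74 to 50.0 CPM at washout (median 6.82). STAB1 had 21.4 to 67.9 CPM Pre (median 42.4), 10.9 to 122 CPM Post (median 37.1) and 11.7 to 88.1 CPM at washout (median 31.0). The other 5 members overlapped in the same way, with TIMD4 the lowest in counts, at 0 to 112 reads per library and 0 in the Post library of animal 23004, which allows up to 3 reads by counting error alone.

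In 5 of 7 animals all 8 members had the same direction in SM between Post and washout. From Post to washout all 8 were higher in animals 19832, 20456, 22130 and 23004, by a median log2 of 0.69, 2.90, 3.47 and 1.48, and all 8 were lower in 24849, with a median of -2.27. In 20275 it was 7 lower and 1 higher, and in 21189 5 lower and 3 higher. The washout library of 22130 was the highest of the 21 SM libraries for 7 of the 8, for example with 83.3 CPM of F13A1 against at most 35.2 in the others, and it also had the highest pan-macrophage sum, 386 CPM. The pairs of members had a median r of 0.890 over the 21 SM libraries, and here all 28 pairs, those with STAB1 included, were positive.

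Among the 8 Post libraries of SM the member sum fell into separate ranges. It was 148 to 213 CPM in animals 20275, 21189, 21866 and 24849 and 23.2 to 50.1 CPM in 19832, 20456, 22130 and 23004. The first 4 had the lowest muscle fibre sums of this group, 41500 to 104800 CPM, against 193300 to 220400 CPM in the others, and their pan-macrophage sums were 175 to 269 CPM against 27.4 to 44.6. The parts of tissue composition and of the library number series given below in the members' SM values were not tested.

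**Figure D4:**
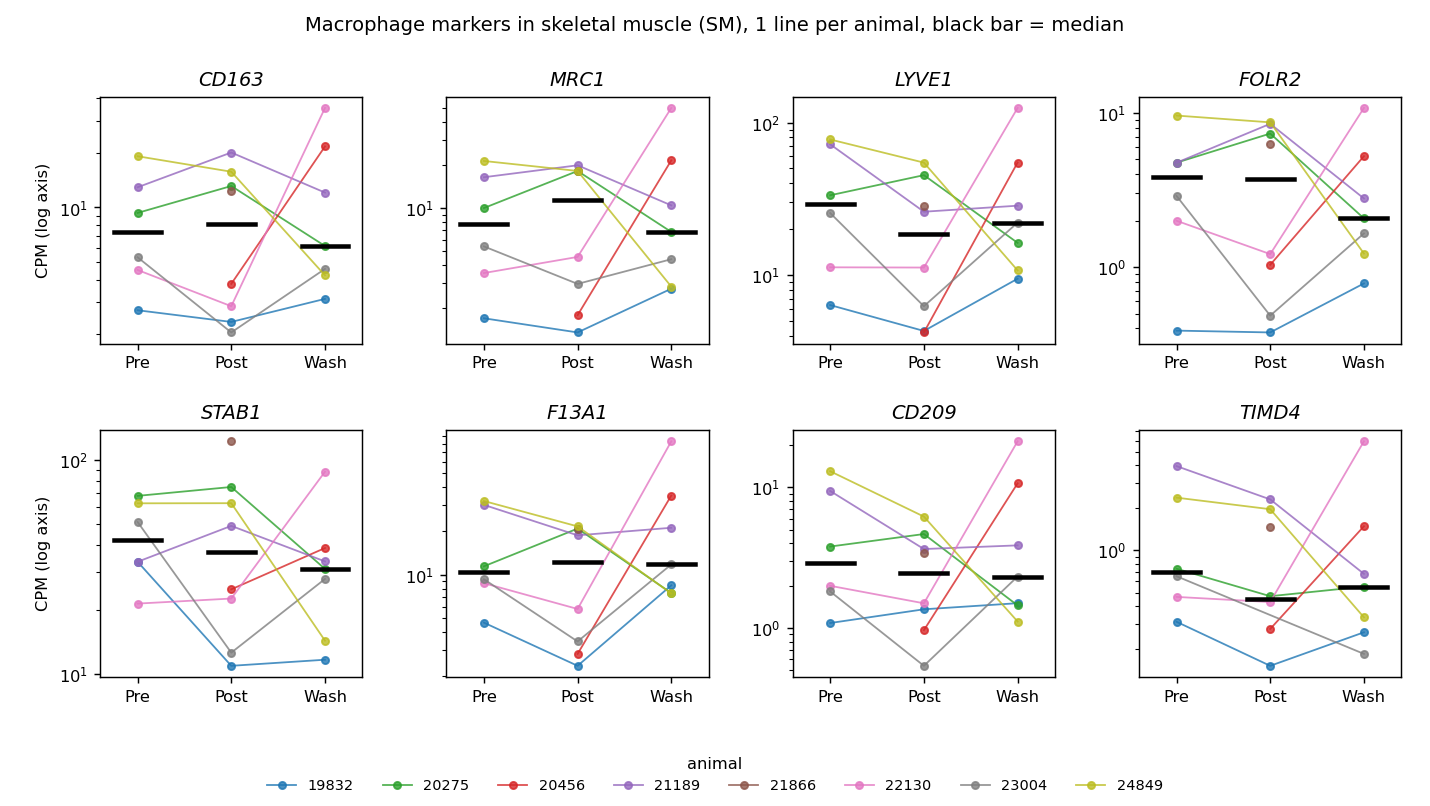
CPM of the 8 members in SM (log axes, 1 panel per gene) at Pre, Post and Wash, with 1 line per animal and a black bar at the median; the TIMD4 value of 0 in the Post library of animal 23004 is not drawn. From Post to Wash the lines of 5 of 7 animals run in 1 direction in all 8 panels, and the Wash library of 22130 is on top in 7 of 8.

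Library identifiers fall into a first, a middle and a last number series whose meaning the labels do not give. In SM they were uneven: 5 Post libraries were of the first series and 3 of the last, while 6 of 7 washout libraries were of the last. The Post libraries with low member sums, from 19832, 20456, 22130 and 23004, were all of the first series. All members rose from Post to washout in these animals. Of the Post libraries with high sums, those of 21189, 21866 and 24849 were of the last series and that of 20275 of the first. The part of the series in this split was not tested. In the last series alone, with 2 Pre, 3 Post and 6 washout libraries, the direction at washout compared to Post turned and 5 members were DE lower: FOLR2 (log2 fold change -2.19, adjusted p = 0.0186), TIMD4 (-2.11, 0.0270), CD163 (-1.31, 0.0341), MRC1 (-1.77, 0.0357) and STAB1 (-1.35, 0.0383). In the last series only animals 21189 and 24849 had both Post and washout SM libraries, so washout compared to Post rests on them. With all libraries 24849 already had all 8 members lower from Post to washout, and 21189 had 5 lower and 3 higher. The share of all genes called in this fit is not given here, so the 5 calls have no background. With the series as a term in the model 0 of 8 were DE in SM. In AT the last series alone, with 7 Pre, 7 Post and 4 washout libraries, kept 5 of the 7 calls against Post, losing F13A1 (adjusted p = 0.170) and CD209 (0.114), and 4 of the 6 against Pre, losing FOLR2 (0.0885) and CD209 (0.103). The only AT Post libraries of the middle series were those of 20456 and 23004. In these animals the members as a percent of the pan-macrophage sum were higher Post than Pre.

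Whether the change differed between the tissues was tested as the change in AT minus the change in SM. Post compared to Pre it differed for 0 of 8 members, against 0.0487% of all genes. From Post to washout 6 members were lower in AT relative to SM, against 10.8% of all genes: MRC1 (log2 difference -2.56, SE 0.75, adjusted p = 0.0145), CD209 (-2.19, SE 0.75, 0.0337), F13A1 (-2.17, SE 0.64, 0.0148), TIMD4 (-2.14, SE 0.75, 0.0395), FOLR2 (-1.96, SE 0.68, 0.0373) and CD163 (-1.69, SE 0.57, 0.0332). From Pre to washout it was 1, F13A1 (-2.11, SE 0.64, adjusted p = 0.0213), against 8.38% of all genes. The Post to washout difference was not particular to the members. Of 14 pan-macrophage genes 6 were lower in AT relative to SM (median -1.88, members -2.05). So were 5 of 18 other resident macrophage genes (median -0.64) and 1 of 5 monocyte genes (median -2.13). Of 12 inflammatory activation genes 1 was lower, with a median of 0.24.

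The calls of the tissue difference changed with the identifier series in the model and when single animals were left out. With the series in the model FOLR2 (adjusted p = 0.151), TIMD4 (0.126) and CD163 (0.134) did not pass from Post to washout, and STAB1 did (1.66, adjusted p = 0.0238). Over 10 fits with 1 animal left out, TIMD4 kept its call in 3 and FOLR2 in 4. Without animal 22130 none of the 6 passed and the F13A1 difference was -1.53 (adjusted p = 0.0663), while STAB1 was higher in AT relative to SM (1.43, adjusted p = 0.0286). Leaving out 20456 or 23004 left 1 and 2 calls, leaving out 20261, which has AT libraries and none from SM, left 3, and in the last series alone FOLR2, CD209, TIMD4 and LYVE1 changed sign and the only call was STAB1 (2.79, adjusted p = 0.00200). The single call against Pre, F13A1, was lost without 19832, 22130 or 23004. STAB1 was positive in each of these fits. In the last series alone the SM part of the Post to washout difference rests on animals 21189 and 24849.

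**Figure D5:**
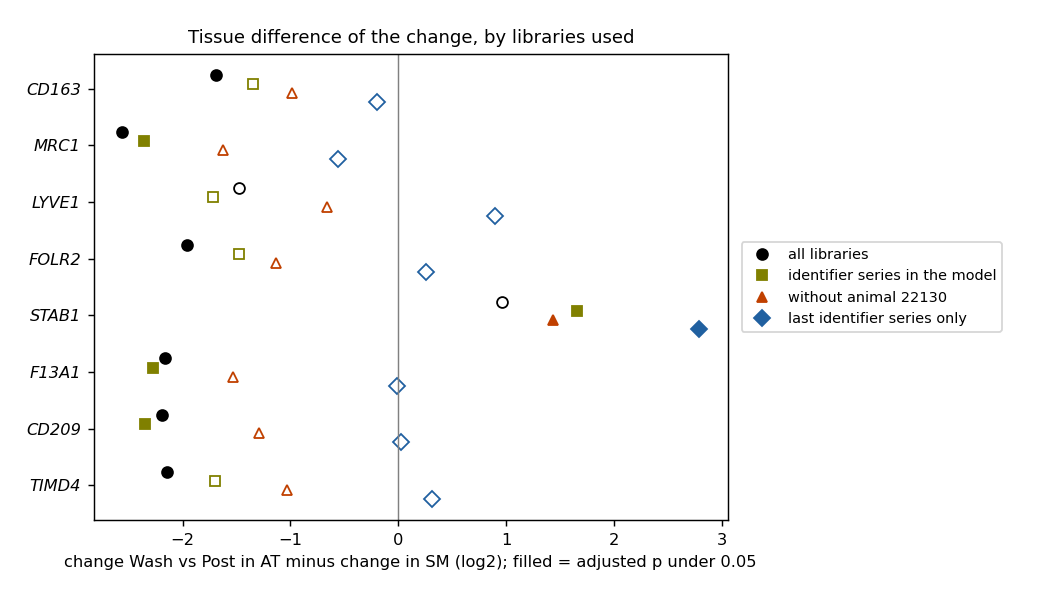
Change from Post to Wash in AT minus that in SM (log2) for each member with all libraries, with the identifier series in the model, without animal 22130 and in the last series only, with filled symbols at an adjusted p under 0.05. With all libraries 6 members are filled and negative, without 22130 none of these 6 is, and in the last series only STAB1 is filled (2.79).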

How the data were processed

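The values are raw counts of reads per gene, which the authors deposited without normalization for 48 of 51 labelled libraries, and 3 SM samples were not analysed here. RNA with an integrity number above 8 went into stranded mRNA libraries of paired 50-nucleotide reads, which the authors aligned with STAR to the MacaM rhesus genome; the counting program and versions are not given in the sources used here. Of 16103 entries 70 repeats of a gene were dropped. Without gene lengths for this build, levels were not compared between genes, and no sequences are shown.

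Genes reaching 0.5 CPM in 10% or more of a tissue's libraries were tested (13367 in AT, 12617 in SM, 12322 in both) with edgeR 4.0.16 in R 4.3.3: TMM, robust quasi-likelihood tests of time point and animal within tissue, and interaction (animal within tissue) and level (animal) fits over both tissues, two-sided, adjusted by Benjamini-Hochberg over all genes tested. log2 CPM used a prior count of 2. Totals were 14455195 to 23940980 (median 18578869). With animal in the model, p-values measure the spread left after animal and time point are fitted. With 1 biopsy per animal and time point, that spread includes variation between biopsies and libraries. On counts simulated without animal effects, 200 genes, drawn from those with higher mean counts, were changed by log2 1.5. Of them 192 were called in AT beside 5 unchanged genes (13202 genes) and 168 in SM beside 8 (12467 genes). The shares do not give the power for members with smaller changes or fewer counts. The animal numbers in the labels pair the samples: the median r of libraries of 1 animal, after removal of time point means, was 0.389 in AT (25 pairs, different animals -0.0352) and 0.290 in SM (19 pairs, -0.0473).

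The members and lists were chosen with earlier results of these data known. Named were all members, of each list at most 4 genes with the smallest p Post compared to Pre in AT at a mean of at least 1 CPM, and the 5 genes most correlated with CD163 and with the member mean. The values of 1 listed gene are not reported here. Alternatives were limma 3.58.1, DESeq2 1.42.0, other normalization, filters, models and libraries, and each animal left out. edgeR's earlier quasi-likelihood method and, for the tissue difference, the identifier series and each animal left out were added after seeing the data. Python 3.11.15, pandas 2.3.3, NumPy 2.4.6 and matplotlib 3.10.9 were also used.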

Additional observations from a re-analysis of the deposited data

Results flagged for a closer look

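In the Post group of AT, 1 of 9 libraries lay apart from the rest for STAB1: that of animal 21189, with 30.1 CPM, the lowest of the group. The same library had the highest FOLR2, CD209 and TIMD4 values of the 27 AT libraries. It was the only 1 of 48 groups with a sample apart, and chance sets about 1 in 20 such groups apart.

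The change from Post to washout differed between AT and SM in the test of the difference itself for MRC1 (-2.56 in AT relative to SM, log2), CD209 (-2.19), F13A1 (-2.17), TIMD4 (-2.14), FOLR2 (-1.96) and CD163 (-1.69), and that from Pre to washout for F13A1 (-2.11). Without animal 22130 none of these 7 differences passed the test.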

How the results depend on the processing

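In AT, the 7 calls of washout against Post stood with DESeq2, voomWithQualityWeights, library size scaling, both other filters, the earlier quasi-likelihood method, the series in the model and any 1 animal left out. No value of the members in AT at washout, against Post or Pre, changed sign under any alternative run. SM values had SE of 0.47 to 0.78 and none was called with all libraries, so their changes of sign below are of values that did not pass the test. The parts of depth and of spread in these values were not tested, and TIMD4 in SM had only 0 to 112 reads. The cause of the changes below was not tested.

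Post compared to Pre in AT, 1 member was called with voomWithQualityWeights, 2 with DESeq2 and 1, STAB1, in the last series, and 0 to 2 with 1 animal left out. TIMD4 turned to -0.036 with voomWithQualityWeights, -0.037 with DESeq2, -0.020 with at least 10 counts in every library, -0.0033 with only the 2 time points fitted, -0.016 with the earlier quasi-likelihood method and -0.071 without the Pre library of 20275. With 1 animal left out TIMD4 was -0.22 to 0.20 and CD209 -0.0075 to 0.40.

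The animal is the replicate block of these designs, and without it 1 member, F13A1, was called at washout compared to Pre in AT, and 3 in the tissue difference from Post to washout. Without the block Post compared to Pre in SM became 0.078 for STAB1, 0.076 for FOLR2, 0.13 for MRC1 and 0.017 for CD163, and washout compared to Post -0.44 for STAB1 and -0.30 for FOLR2. The unblocked tissue difference Post compared to Pre was -0.19 for F13A1 and -0.58 for STAB1, and the STAB1 level Post was -0.011 in AT relative to SM.

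In the last series alone, SM Post compared to Pre was 0.80 for LYVE1, 0.74 for F13A1, 0.0029 for STAB1, 1.59 for FOLR2, 0.49 for CD209, 1.69 for MRC1, 1.72 for TIMD4 and 1.03 for CD163. Washout compared to Post had 5 calls, with -1.12 for LYVE1, -0.69 for F13A1, -1.35 for STAB1, -2.19 for FOLR2, -1.11 for CD209, -1.77 for MRC1, -2.11 for TIMD4 and -1.31 for CD163, and washout compared to Pre was -0.31 for LYVE1, -0.63 for CD209, -0.085 for MRC1 and -0.28 for CD163. The tissue difference Post compared to Pre was -1.52 for LYVE1, -1.53 for F13A1, -0.91 for STAB1, -0.90 for FOLR2, -0.72 for CD209, -1.02 for MRC1, -1.56 for TIMD4 and -0.85 for CD163. From Post to washout it had 1 call, with 0.90 for LYVE1, 0.26 for FOLR2, 0.027 for CD209 and 0.32 for TIMD4. CD209 in AT Post compared to Pre was -0.17. In this series no animal had both Pre and Post SM libraries. Its SM values Post compared to Pre therefore link different animals through washout, also within the tissue difference. Its SM values at washout compared to Post rest on animals 21189 and 24849. The share of all genes called in that fit is not given here.

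With the series in the model, SM Post compared to Pre was 0.11 for FOLR2, 0.23 for MRC1 and 0.051 for CD163, washout compared to Post was -0.59 for STAB1 and -0.30 for FOLR2, and the tissue difference Post compared to Pre was -0.017 for F13A1 and -0.035 for STAB1, with 2 calls from Pre to washout. With library size scaling, SM Post compared to Pre was 0.0062 for MRC1, washout compared to Post -0.13 for STAB1 and -0.022 for FOLR2, the tissue difference Post compared to Pre -0.0033 for F13A1, and the tissue difference had 2 calls from Post to washout and 0 from Pre to washout. With voomWithQualityWeights it had 3 and 0, and SM washout compared to Pre was -0.51 for LYVE1, -0.080 for F13A1, -0.74 for CD209, -0.28 for MRC1 and -0.21 for CD163.

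With only the 2 time points fitted, SM Post compared to Pre was 0.038 for MRC1, washout compared to Post -0.0022 for STAB1, and washout compared to Pre -0.36 for LYVE1, -0.38 for CD209, -0.10 for MRC1 and -0.017 for CD163. FOLR2 in SM at washout compared to Pre was 0.13 with DESeq2 and 0.049 with the earlier quasi-likelihood method.

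With 1 animal left out, SM Post compared to Pre was -0.38 to 0.030 for MRC1 and -0.44 to 0.12 for FOLR2. Washout compared to Post was -0.40 to 0.36 for STAB1, -0.57 to 0.66 for FOLR2, -0.13 to 1.15 for MRC1, -0.38 to 1.37 for TIMD4 and -0.022 to 1.013 for CD163. Washout compared to Pre was -0.80 to 0.47 for FOLR2, -0.52 to 0.67 for LYVE1, -0.71 to 0.75 for CD209, -1.42 to 0.39 for TIMD4, -0.0019 to 1.12 for F13A1, -0.35 to 1.07 for MRC1 and -0.29 to 0.83 for CD163. The tissue difference Post compared to Pre was -0.22 to 0.48 for STAB1, -0.23 to 0.33 for F13A1 and -0.024 to 0.78 for LYVE1, and its calls numbered 1 to 6 from Post to washout and 0 to 2 from Pre to washout.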
